A study of Mus musculus with 11 samples.

Results

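miR-101a and miR-101b are a pair of mouse miRNAs with one seed, measured here on 11 arrays of mammary tissue. The members were the spots whose annotation named mmu-miR-101a or mmu-miR-101b, 8 of the 1336 plus-strand mouse spots on each array and 2 of the 334 mouse miRNAs. The samples were primary mammary tumors of C3(1)/Tag mice (labelled C3TAg, FVB strain, 3 arrays) and normal mammary tissue of FVB mice (2 arrays), Balb/C mice (labelled Balbc, 3 arrays) and FVB129B6 mice (3 arrays). All animals were female, the glands came from mice in late pregnancy, and ages were not given in the sources used here. C3(1)/Tag mice carry the simian virus large and small T antigens as a transgene under the C3(1) promoter. The glands are labelled as normal tissue. The study describes its tumors as each from a different animal. For the glands neither the labels nor the methods say so, and the titles of Balb/C replicates 2 and 3 could name 2 glands of 1 mouse, so p-values between strains measure only the spread between these arrays.

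A miRNA is a short RNA that guides the silencing complex to messenger RNAs, chiefly by pairing of its seed, the bases next to its 5′ end, with sites in the target. miR-101 is known for acting on Ezh2, the enzyme of the Polycomb complex that methylates histone H3, and its loss is a known route to high Ezh2 in several cancers. In the mammary gland miR-101a is known as a regulator of Cox-2 (the Ptgs2 gene), the inducible enzyme of prostaglandin synthesis.

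The sequences are shown because the pair can be told apart at only 1 base. The first 22 bases of each deposited 60-base probe pair with the RNAs below, in which capitals mark the base that differs, A16G from miR-101a to miR-101b when positions are counted from 1 at the 5′ end.
miR-101a, array target: uacaguacugugauaAcugaag
miR-101b, array target: uacaguacugugauaGcugaag
The mature forms in the RefSeq table (GRCm38.p6) follow, with bases 2 to 8 in capitals, beside miR-144, an erythroid miRNA.
miR-101a-3p: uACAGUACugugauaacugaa
miR-101b-3p: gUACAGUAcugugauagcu
miR-144-3p: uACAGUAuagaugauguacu
On the array's own targets both members had the same bases 2 to 8. The RefSeq entry of miR-101b starts 1 base earlier, which moves its seed window by 1. RefSeq mature forms were matched for 248 of the 334 miRNAs on the array. Apart from the pair, only miR-144 of these held the 6 letters ACAGUA (bases 2 to 7 of miR-101) within its first 8 bases, as did 6 of all 1679 mature forms in the table (0.357%). In the miR-144-3p line the capitals therefore mark bases 2 to 7. The whole probes of the pair were 1 base edit apart, and the probe of miR-144, the nearest other probe, lay 7 edits from miR-101a and 8 from miR-101b. All 19 bases of miR-101c, a further mature form in the table, lie within the miR-101a target and not within that of miR-101b. How much of the signal of one probe came from the other member or from miR-101c was not tested. The Mir101a hairpin lies on chromosome 4 at 101346945 to 101347027 (minus strand, GRCm38.p6), within the span of the long non-coding RNA gene E130102H24Rik. The Mir101b hairpin lies on chromosome 19 at 29135279 to 29135375 (plus strand), within the span of the protein-coding gene Rcl1. Whether these positions are exonic or intronic was not read here.

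Both members were bright in every pregnant gland and at the level of the negative controls in every tumor. The miR-101a spots on a gland array had green intensities between 2920 (FVB replicate 2) and 12300 (FVB129B6 replicate 2), and the miR-101b spots between 5460 and 15500 on the same 2 arrays. The highest of the 77 negative control spots on any gland array read 123. On the tumor arrays the miR-101a spots read 108 to 170 and the miR-101b spots 111 to 198. The negative controls there had medians of 163, 136 and 117 and highest values of 936, 422 and 406 in replicates 1, 2 and 3. All 4 spots of each member were called well above background on every gland array, and none was on a tumor array. This pattern was common, since it held for 42.5% of the 334 miRNAs. The median mouse spot on the tumor arrays read 170, 140 and 125, close to the median negative control, and 15 to 64 miRNAs were well above background per tumor array against 209 to 262 per gland array. Of the 88 member spots on the 11 arrays 4 were left out as outliers, among them a miR-101b spot of FVB129B6 replicate 1 that read 6470 beside spots of up to 13200. The remaining spots of a member on a gland array had an SD of 0.0076 to 0.13 on the log2 scale.

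**Figure D1:**
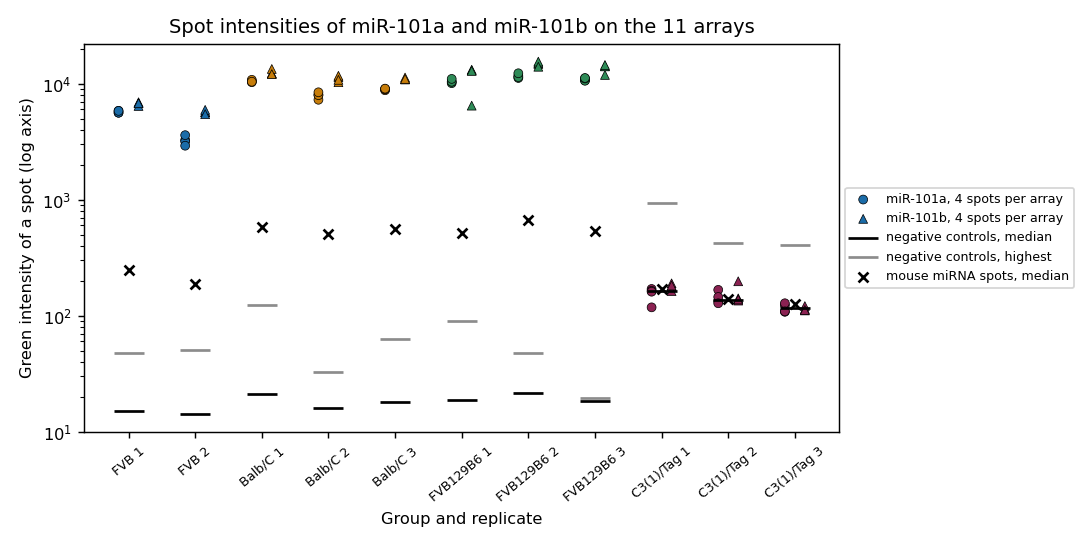
Green intensity of each spot of miR-101a (circles) and miR-101b (triangles) on the 11 arrays (log axis), with the median and highest of 77 negative control spots (bars) and the median mouse miRNA spot (cross) of the same array. The gland spots lie between 2920 and 15500, far above the negative controls, and the tumor spots between 108 and 198, below the highest negative control of their own array.

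Levels are given as the log2 green intensity minus the array's median over the 1336 mouse spots, averaged over a miRNA's spots, so that 0 is the median spot of an array. On this scale miR-101a was at 4.54 and 4.10 in the FVB glands, at 4.17, 4.0 and 4.0 in the Balb/C glands, at 4.33, 4.12 and 4.34 in the FVB129B6 glands, and at -0.16, 0.03 and -0.10 in the tumors. The strains overlapped, with the highest and an intermediate value both in FVB, and the tumors lay far below every gland. miR-101b was at 4.78 and 4.92 in the FVB glands, at 4.39, 4.44 and 4.29 in the Balb/C glands, at 4.65, 4.47 and 4.67 in the FVB129B6 glands, and at 0.07, 0.11 and -0.13 in the tumors. At this scale the 3 strains did not overlap for miR-101b and ran from FVB down through FVB129B6 to Balb/C, again with the tumors far below. With the 75th percentile of each array as its scale they overlapped, with FVB at 0.77 and 0.76 within the Balb/C range of 0.65 to 0.82. How many other miRNAs separate the strains in this way was not counted. In group means miR-101a had a level of 4.32 ± 0.31 (SD, n = 2) for FVB, 4.26 ± 0.13 (SD, n = 3) for FVB129B6, 4.06 ± 0.10 (SD, n = 3) for Balb/C and -0.08 ± 0.10 (SD, n = 3) for the tumors. For miR-101b the means were 4.85 ± 0.10 (SD, n = 2) for FVB, 4.59 ± 0.11 (SD, n = 3) for FVB129B6, 4.37 ± 0.08 (SD, n = 3) for Balb/C and 0.02 ± 0.13 (SD, n = 3) for the tumors. At this scale the order of the strain means was the same for both members, but the steps between neighbouring strains were not called for either, as tested below. The place of FVB in this order changed with the scaling, as also given below.

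The comparison of strains asked whether genetic background alters miRNA levels in the pregnant gland. Balb/C glands had less miR-101b than FVB glands at the array-median scale, and this was the only strain difference of the pair that passed the test. On the log2 scale it differed by -0.47 (standard error 0.16, adjusted p = 0.0467, limma with Benjamini-Hochberg adjustment over 261 miRNAs). At this scale 32.2% of the tested miRNAs were called lower and 5.75% higher in Balb/C than in FVB, and the median difference of all of them was -0.48, so miR-101b lay at the background. For miR-101a the same difference was -0.26 (95% interval -0.71 to 0.18, adjusted p = 0.284). Between FVB129B6 and FVB glands, miR-101a differed by -0.06 (95% interval -0.50 to 0.38, adjusted p = 0.81) and miR-101b by -0.25 (95% interval -0.62 to 0.11, adjusted p = 0.23), where 31.4% of miRNAs were called lower and 8.05% higher. Between Balb/C and FVB129B6 glands the differences were -0.21 for miR-101a (95% interval -0.60 to 0.19, adjusted p = 0.568) and -0.22 for miR-101b (95% interval -0.55 to 0.11, adjusted p = 0.43). In that contrast 2.3% of miRNAs were called lower and 1.15% higher.

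The direction of the differences from FVB depended on how the arrays were scaled. Before any scaling both members were dimmest in the FVB glands, and both were called higher in Balb/C (1.09 for miR-101a and 0.88 for miR-101b on the log2 scale) and in FVB129B6 (1.35 and 1.16). The median difference of all tested miRNAs was then 0.87 and 1.02, since the median mouse spot read 245.5 and 188.5 on the FVB arrays and 508 to 671.5 on the other gland arrays. With the 75th percentile of each array as its scale, Balb/C minus FVB became 0.17 for miR-101a and -0.04 for miR-101b, neither called, and the median of all tested miRNAs was -0.05. With normexp background correction both members were called above FVB, with differences of 0.63 and 0.35 for Balb/C and 0.71 and 0.46 for FVB129B6. The median of all tested miRNAs was then -0.088 in both contrasts. The call of miR-101b at the main scale was lost in each of the 8 fits that left out 1 gland array, where its adjusted p ran from 0.056 to 0.163. The difference between Balb/C and FVB129B6 stayed below 0 for both members under all 24 alternatives tried and was called under none of them. Within slide row 1 miR-101b differed between Balb/C and FVB by -0.34 and within row 2 by -0.58, with 1 or 2 arrays a strain in each, and with the 75th percentile by -0.07 and -0.03. For miR-101a the values were -0.54 and -0.02 at the main scale and -0.27 and 0.54 with the 75th percentile. The FVB arrays had a column of the slide to themselves, so column and strain cannot be told apart.

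**Figure D2:**
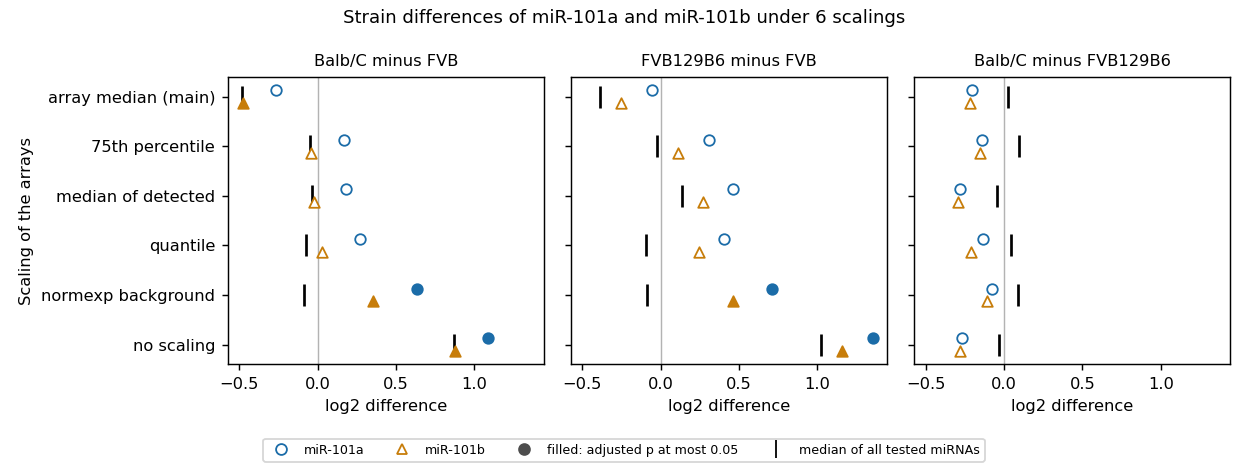
Log2 differences of miR-101a (circles) and miR-101b (triangles) in the 3 strain contrasts under 6 scalings, filled where the adjusted p was at most 0.05, with the median of all tested miRNAs (bar). The differences from FVB run from -0.47 to 1.35 and change sign with the scaling, while those between Balb/C and FVB129B6 stay below 0 and are not called.

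A difference within an array does not depend on the scale of that array, so the pair was also compared in this way. The value of miR-101a minus that of miR-101b was -0.23 and -0.82 in the FVB glands, -0.22, -0.44 and -0.29 in the Balb/C glands, and -0.32, -0.35 and -0.32 in the FVB129B6 glands. The strains overlapped, and FVB replicate 2 had the lowest value, with an intermediate miR-101a (4.10) and the highest miR-101b of the glands (4.92) at the array-median scale. Across strains these differences did not pass the test (exact permutation test of the strain labels on the F statistic, p = 0.589, where 560 relabelings allow no p below 0.00357). The difference of differences was 0.21 for Balb/C minus FVB (95% interval -0.26 to 0.67), 0.19 for FVB129B6 minus FVB (95% interval -0.27 to 0.66) and 0.01 for Balb/C minus FVB129B6 (95% interval -0.40 to 0.43). The direction of both differences from FVB rests on FVB replicate 2. FVB replicate 1, at -0.23, lay above the means of Balb/C (-0.32) and FVB129B6 (-0.33). In the tumors, where neither member was well above background, miR-101a minus miR-101b was -0.23, -0.08 and 0.03. Since the 2 probes may bind with unequal strength, the sign of these values does not order the amounts of the 2 miRNAs. Over the 8 gland arrays the Pearson correlation of the members' levels was 0.551, a description over arrays that share a slide, which became 0.968 before scaling and 0.596 with the 75th percentile.

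**Figure D3:**
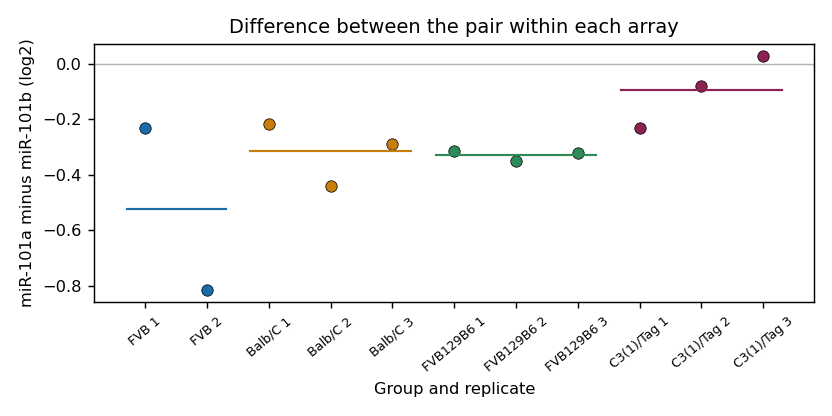
miR-101a minus miR-101b on the log2 scale within each of the 11 arrays, by group and replicate, with the group mean as a line. The gland values lie between -0.82 and -0.22, with FVB replicate 2 lowest, and the tumor values between -0.23 and 0.03.

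Both members were lower in the C3(1)/Tag tumors than in the glands at the array-median scale. Because no tumor array had either member well above background, the size is given as a lower bound, for which each tumor array took either its own level or, where that was higher, the dimmest level that was called well above background among its miRNAs. At the array-median scale miR-101a was at least 5.35-fold and miR-101b at least 7.00-fold lower in the tumors than in the mean of the 3 strains. Against the FVB glands, the strain of the tumors, the bounds were at least 5.76-fold and 8.29-fold. Both members entered the fit through the gland arrays alone, so a fitted difference would be one from a background reading and none is given. Members that pass in this way had to differ, and their p-values say no more than that the gland readings lay above the background readings of the tumors. The adjusted p-values against the mean of the strains were 7.25e-10 for miR-101a and 2.58e-10 for miR-101b (limma over all 11 arrays with Benjamini-Hochberg adjustment), and against FVB 9.73e-09 and 2.81e-09 (the same limma fit). Low values were frequent in these tumors, with 52.5% of the 261 tested miRNAs called lower and 37.9% higher than in the mean of the strains, and 52.5% lower and 35.6% higher than in FVB. All 3 tumor arrays lay below all 8 gland arrays for 46.4% of the tested miRNAs.

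The bound also moved with the scaling. Before scaling it was at least 15.1-fold for miR-101a and 19.8-fold for miR-101b, and with normexp at least 8.56-fold and 11.2-fold. With the 75th percentile or quantile normalization it came out under 1 for both, and with the median of the miRNAs detected on every array it was under 1 for miR-101a and at least 1.21-fold for miR-101b. No fold is given where the bound is under 1, and there the direction rests on tumor values at the background. The tumor arrays lay on another slide than the gland arrays and were extracted with another version of the scanner program, so tissue, slide and version cannot be told apart. Fewer cells that carry a miRNA and less of it per cell cannot be told apart in bulk tissue either.

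The other miRNAs known for acting on Ezh2 or Cox-2 give a setting for the pair, and miR-101 was left out of both lists. All 15 of the Ezh2 list (miR-26a and miR-26b, miR-98, miR-124a, miR-138, miR-144, miR-214 and 8 let-7 members) were on the array, and each was well above background on every gland array. Of these, 14 were called lower and 1 higher in the tumors than in the mean of the strains at the array-median scale, where 52.5% of all tested miRNAs were lower and 37.9% higher. The list had 9 miRNAs that were well above background on no tumor array and passed the filter through the glands alone, so its counts describe these arrays and support nothing further. With the 75th percentile 5 of the list were lower and 7 higher, where 26.8% of all tested miRNAs were lower and 65.9% higher. The other 6 were well above background on at least 1 tumor array, let-7a, let-7b, let-7c and let-7d on all 3. The let-7 miRNAs are known as repressors of growth genes and mark differentiated tissue. let-7c was between 8.03 and 9.04 in the glands with a median of 8.17, and at 6.69, 6.42 and 7.15 in the tumors, below every gland at the array-median scale. let-7b, a close relative in sequence, was between 7.36 and 8.44 in the glands and at 7.08, 6.52 and 7.64 in the tumors, with 1 tumor inside the range of the glands. Both turned direction with the scaling, since the tumors minus the mean of the strains came to -1.65 for let-7c and -0.70 for let-7b at the array-median scale and to 1.33 and 2.28 with the 75th percentile, all of them called.

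miR-26a, also known for acting on Ezh2, was between 7.25 and 8.29 in the glands with a median of 7.38, and at -0.32, 0.20 and 0.31 in the tumors. Like miR-101a and miR-101b it was well above background on no tumor array, and its bound was at least 59.2-fold lower at the array-median scale, 7.52-fold with the 75th percentile and 6.04-fold with quantile normalization. miR-138 was the member called higher in the tumors, by 0.65 (adjusted p = 0.00618, limma), but it was well above background on no tumor array and its gland values of -1.15 to 1.04 enclosed the tumor values of 0.24 to 0.47. Before scaling its difference was -0.85. Between strains 11 of the 15 were lower in Balb/C than in FVB at the array-median scale and 11 in FVB129B6, with none higher, where 32.2% and 31.4% of all tested miRNAs were lower. With the 75th percentile 2 and 6 were lower, beside 6.13% and 16.5% of all tested miRNAs. Before scaling 7 and 10 of the list were higher and none lower, beside 57.9% and 67.4% higher over all tested miRNAs. Leaving out Balb/C replicate 1 gave 7 lower in Balb/C.

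Of the 8 miRNAs of the Cox-2 list 6 were on the array. All 6 (miR-16, miR-26b, miR-143, miR-144, miR-146 and miR-199a) were called lower in the tumors than in the mean of the strains at the array-median scale, where 52.5% of all tested miRNAs were lower. The 6 included 4 with no tumor array well above background, so these counts too are a description of readings mostly at the background. With the 75th percentile 4 of the 6 were lower and 1 higher, beside 26.8% and 65.9% of all tested miRNAs. miR-143, a miRNA of smooth muscle and stromal cells, was between 8.32 and 9.42 in the glands with a median of 8.58, and at -0.12, 0.26 and 0.10 in the tumors, with a bound of at least 121-fold lower at the array-median scale and 15.4-fold with the 75th percentile. Between strains, none was called in Balb/C against FVB and 1 was lower in FVB129B6, miR-144, at the array-median scale, beside 32.2% and 31.4% lower and 5.75% and 8.05% higher over all tested miRNAs. Leaving out 1 array gave 0 to 1 of the list lower in Balb/C and 1 to 2 in FVB129B6. The seed relative miR-144 was at 1.79 and 1.41 in the FVB glands, at 1.00, 1.29 and 0.26 in the Balb/C glands, and at -0.08, -0.63 and 0.54 in the FVB129B6 glands. Between FVB129B6 and FVB miR-144 differed by -1.66 (adjusted p = 0.0151, limma) at the array-median scale, where the median of all tested miRNAs was -0.39. The difference kept its sign under the 75th percentile (-1.29) and before scaling (-0.24, adjusted p = 0.586, limma). The tumor values of miR-144, at -0.31, -0.02 and 0.30, lay within the range of the glands.

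**Figure D4:**
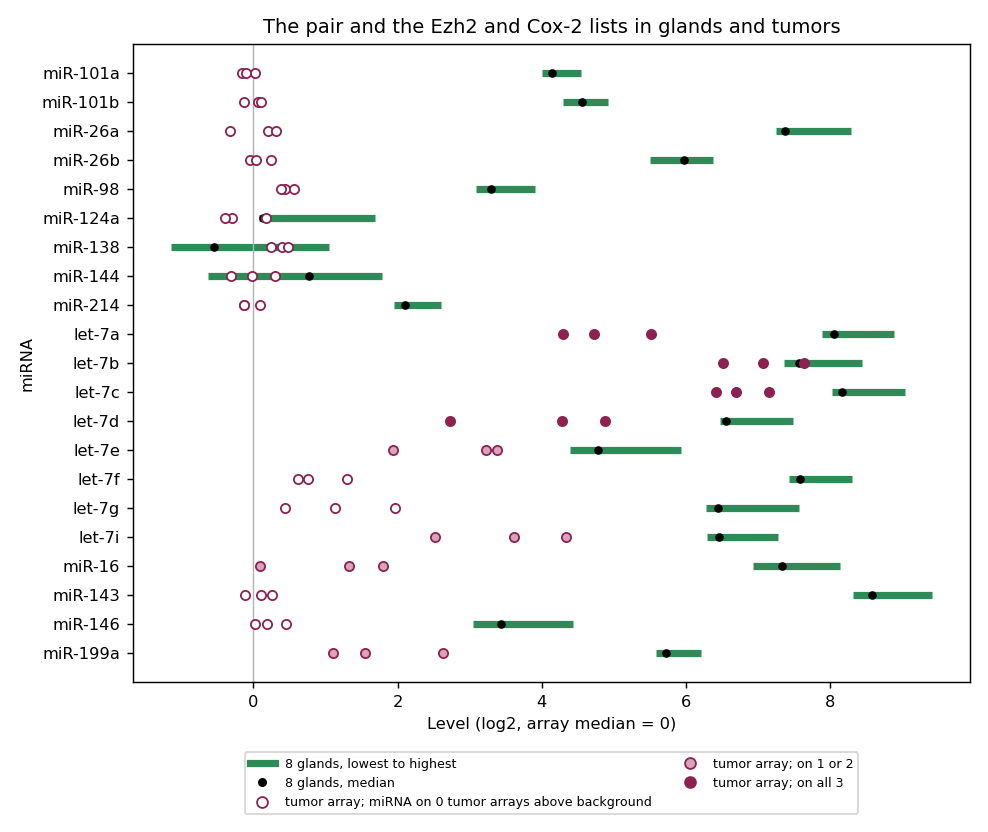
Levels (log2, array median 0) of miR-101a, miR-101b and the miRNAs of the Ezh2 and Cox-2 lists, with the range (bar) and median (black point) of the 8 glands and the 3 tumor arrays (circles, filled by the number of tumor arrays on which the miRNA was well above background). The pair sits near 0 in all 3 tumors, and let-7b and let-7c stay above 6 there.

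Across the 8 glands, the levels most like the mean of the pair were those of miR-10b, miR-103, miR-30b, miR-152 and miR-204, with Pearson correlations of 0.897, 0.888, 0.881, 0.878 and 0.877 among 202 miRNAs well above background on all 8 arrays, whose median was 0.420. With the 75th percentile, where the median over the 202 was -0.05, miR-103 had a correlation of 0.0944 and rank 80, whereas miR-204 had one of 0.686 and rank 8. With quantile normalization miR-204 ranked 1 with a correlation of 0.933, and miR-103 ranked 105 with -0.211. miR-10b, a miRNA of the Hox gene clusters, was at 4.97 and 5.12 in the FVB glands, at 4.46, 4.41 and 4.46 in the Balb/C glands, and at 4.80, 4.60 and 4.96 in the FVB129B6 glands. Like miR-101b it was called lower in Balb/C than in FVB at this scale, by -0.60 (adjusted p = 0.0257, limma), which became 0.75 before scaling, and its tumor values of 0.10, 0.18 and 0.08 were not well above background.

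Marker miRNAs of other cell types were read on the same arrays. The labelled tissue was checked on 7 epithelial markers (miR-141, miR-200a, miR-200b, miR-200c, miR-203, miR-205 and miR-429), each well above background on every gland array, but only 2, 1 and 4 of them were on tumor replicates 1, 2 and 3. Their summed green intensity was 107132 and 168101 in the FVB glands, 227356, 135690 and 274458 in Balb/C, 294485, 320242 and 331600 in FVB129B6, and 3864, 3262.75 and 3426.45 in the tumors. The probe with the highest intensity was that of miR-200a or miR-200b on each gland array. At the array-median scale miR-200c (-1.29) and miR-203 (-0.99) were called lower in Balb/C than in FVB, beside 32.2% of all tested miRNAs. No epithelial marker was called between FVB129B6 and FVB, beside 31.4% lower and 8.05% higher. Leaving out 1 array gave 0 to 4 of the 7 lower in Balb/C and 0 to 1 in FVB129B6. miR-205, of basal epithelium, was the epithelial marker above background on all 3 tumors, and miR-141, miR-200b and miR-203 were on none. The 7 were all called lower in the tumors at the array-median scale, where 52.5% of all tested miRNAs were lower, and 6 with the 75th percentile, where 26.8% were. Since miR-141, miR-200b and miR-203 passed the filter through the glands alone, these counts describe the arrays and support nothing further.

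The 4 skeletal muscle markers on the array (miR-1, miR-133a*, miR-133b and miR-206) summed to 3219.68 and 12951 in the FVB glands but to 337410 to 611500 in Balb/C, 190628 to 272702 in FVB129B6 and 801 to 3510.05 in the tumors, with miR-133b brightest in every gland. All 4 were called higher in Balb/C and in FVB129B6 than in FVB under the 6 scalings. Over all tested miRNAs 5.75% and 8.05% were higher in these contrasts at the array-median scale, and 57.9% and 67.4% before scaling. The pair was also higher in both strains before scaling, but at the array-median scale its differences from FVB were below 0, and miR-101b was called lower in Balb/C. The 3 erythroid markers (miR-144, miR-451 and miR-486), led by miR-451 in every gland, summed to 147360 and 182225 in FVB, 114246 to 214860 in Balb/C and 59089 to 89817 in FVB129B6, and to 467.5 to 730.975 in the tumors, where none was well above background. At the array-median scale all 3 were called lower in FVB129B6 than in FVB, beside 31.4% of all tested miRNAs. In Balb/C miR-451 was called lower than in FVB (-1.38), beside 32.2%. Between Balb/C and FVB129B6 miR-486 was called higher in Balb/C (1.39), beside 1.15%. Leaving out 1 array gave 2 to 3 lower in FVB129B6, 0 to 1 lower in Balb/C, and 0 to 2 higher in Balb/C than in FVB129B6. The 4 leukocyte markers (miR-142-5p, miR-150, miR-155 and miR-223) summed to 171396 in Balb/C replicate 2, led by miR-142-5p, against 11511 to 27516 in the other 7 glands and 854.4 to 2661.5 in the tumors. None of the leukocyte markers was called between Balb/C or FVB129B6 and FVB at the array-median scale, beside 32.2% and 31.4% of all tested miRNAs lower and 5.75% and 8.05% higher. Leaving out 1 array gave 0 to 1 of them lower in each of these contrasts. Without Balb/C replicate 2, the difference of miR-101b between Balb/C and FVB was -0.51 and was not called (adjusted p = 0.0694, limma). The part of the muscle, blood and epithelial content in the differences of the pair was not tested.

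**Figure D5:**
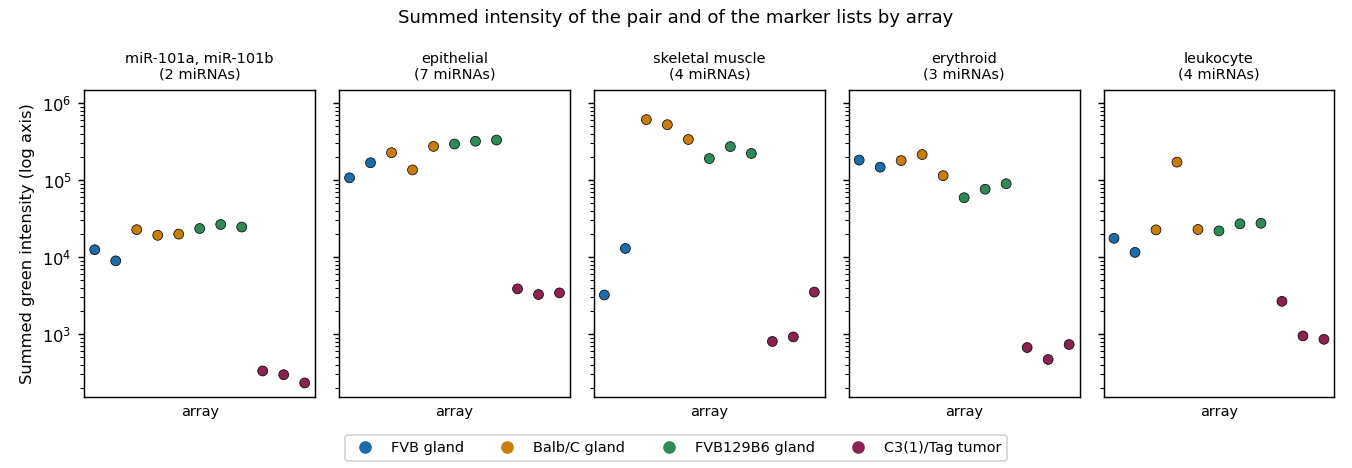
Summed green intensity (log axis) of the pair and of the epithelial, skeletal muscle, erythroid and leukocyte markers on each of the 11 arrays, by group. The panels are read across arrays and not against each other, since probes differ in brightness. The pair and each marker list are lowest in the tumors except that the muscle sum of FVB replicate 1 (3219.68) lies below that of tumor replicate 3 (3510.05).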

How the data were processed

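Total RNA was labelled at the 3′ end and hybridized to a custom array on which 334 mouse miRNAs had 4 plus-strand spots each. The authors deposited 2-color scanner values for 11 arrays, namely intensities of both dyes after background subtraction and dye normalization in Feature Extraction (version 9.5.1.1 for tumors, 10.5.1.1 for glands), with calls for each spot, and a table of log2 values. The deposited log2 values equal the log2 of the green intensity plus a constant for each array, the authors' global median normalization. The background left in these intensities differed between tumor and gland arrays. Negative controls had raw median pixels of 91 to 94 on tumor arrays and 76 to 94 on gland arrays. Their medians after processing were 117 to 163 and 14.1 to 21.6. The cause was not tested.

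Here log2 green intensities were set to the array's median over 1336 spots, outlier spots were left out and the 4 spots averaged. A miRNA was well above background where at least 50% of its spots were, and entered a fit when this held on at least 3 of its arrays, as it did for 261 miRNAs in both fits. limma compared the strains over 8 arrays and the tumors over 11, calling an adjusted p (Benjamini-Hochberg) of at most 0.05. The number of arrays limits the precision. The fits were tested on simulated data in which 50 of 261 miRNAs were shifted. Between Balb/C and FVB the fit recovered 0% of them at a log2 shift of 0.5, 32% at 1 and 100% at 4. Between the tumors and the mean of the strains it recovered 6%, 58% and 100%. The strain differences of the pair at the main scale were all below 0.5 in size, so a missing call does not show equal levels. The members, the lists and the tests were chosen with earlier results of these data known. The miRNAs named are the pair, the listed miRNAs on the array, the 5 most like the pair across the glands and its seed relatives. Not analysed here were miR-199a*, miR-542-3p, miR-133a and miR-142-3p of the lists. The alternatives were other scalings, backgrounds, filters and spot rules, the deposited table, a floor, the ratio to red, blocks, and each array left out. The slide row as a block was chosen after seeing the data. The software was limma 3.58.1 under R 4.3.3, with pandas 2.3.3, numpy 2.4.6 and matplotlib 3.10.9 under Python 3.11.15.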

Additional observations from a re-analysis of the deposited data

Results flagged for a closer look

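The sample labels name only the Hy3 dye, read in the green channel, and the comparisons use that channel. In the red channel both members were also well above background on 8 of 8 gland arrays and on no tumor array, a signal in data outside the main measurement. Red signal was general on the gland arrays, where 85.3% to 88.6% of the miRNAs were well above background in red. The study's methods name Hy3 and/or Hy5 as the dye of the RNA. Which RNA, if any, was labelled in red on these arrays is not given in the sources used here. The part of the red signal in the differences was not tested.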

How the results depend on the processing

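Of 144 strain differences of the pair under the alternatives, 106 kept both sign and call, 17 lost the call and 21 changed sign. Only 12 of the 144 were called, so most that kept their state were differences that stayed uncalled. miR-101b between Balb/C and FVB, the only call at the main scale, was called under 6 of 24 alternatives. These include the calls above FVB without scaling and with normexp. The tumor values of the pair were at the background on every array, so the sign of its fitted tumor differences under the alternatives is no test of stability, and the bound fell under 1 with some scalings. With a filter on every array the pair could not be tested in the tumors, because no tumor array had either member well above background. Signs changed with the scaling. For Balb/C minus FVB, miR-101a and miR-101b came to 0.17 and -0.042 with the 75th percentile, 0.18 and -0.024 with the median of the miRNAs detected on every array, 0.27 and 0.030 with quantile normalization, 1.09 and 0.88 without scaling and 0.63 and 0.35 with normexp. For FVB129B6 minus FVB they came to 0.31 and 0.11, 0.46 and 0.27, 0.40 and 0.24, 1.35 and 1.16, and 0.71 and 0.46 in the same order. As a ratio to red, miR-101b came to -0.28 in Balb/C and 0.034 in FVB129B6 against FVB. The call of miR-101b between Balb/C and FVB was also lost with the median of spots (-0.48), with outlier spots kept (-0.46), with Balb/C replicates 2 and 3 averaged (-0.47), with all 11 arrays in the fit (-0.47), with the slide row as a block (-0.46, chosen after seeing the data) and with the replicate block (-0.47, adjusted p = 0.0924), which changed no other call of the pair. The labels give no pairing, and residuals of arrays with the same number in different strains correlated by 0.0386 on average over 7 pairs, and those with different numbers by -0.0193 over 14. Leaving out 1 array at a time, the difference of miR-101b between Balb/C and FVB ran from -0.54 to -0.40, and that of miR-101a between FVB129B6 and FVB from -0.28 to 0.16, above 0 without FVB replicate 1 or FVB129B6 replicate 2. Between Balb/C and FVB, miR-101a differed by -0.49 without FVB replicate 2. Without FVB replicate 1 the FVB level was 4.10, near the Balb/C mean of 4.06. Over all miRNAs, the 99 calls between Balb/C and FVB became 47 with the 75th percentile, 54 with quantile normalization, 65 as a ratio to red or with all 11 arrays, 151 without scaling and 178 without a filter. The 103 calls between FVB129B6 and FVB became 39 as a ratio to red, 179 without scaling and 191 without a filter. The 9 calls between Balb/C and FVB129B6 ranged from 0 to 17 (with 14 under the replicate block), and the 236 and 230 calls in the tumors fell to 13 and 12 with a filter on every array. The cause was not tested. The within-array comparison of the pair stayed above p = 0.05 (exact permutation test, 0.114 to 0.79). Signal over background limits the tumor values, which bound the level of the pair only from above.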
